A study of Mus musculus with 4 samples.

Results

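The Krüppel-like factors described here are 9 transcription factor genes, Klf3, Klf4, Klf6, Klf7, Klf9, Klf10, Klf11, Klf13 and Klf16, taken by name from the 24984 genes of a table of nascent transcription in mouse thymocytes. The rule is their names alone, although it was written with earlier results of these data known, and Klf2 is given only as a point of reference. The assay, TTchem-seq, labels RNA with a short pulse of 4-thiouridine, fragments it chemically and sequences the labelled fragments, so that fragments were counted over introns as well as exons. Libraries were made from double positive (DP) thymocytes, the stage at which cells carry both CD4 and CD8, after 0.5 h of culture in fresh medium. There were 4 libraries, 2 for each genotype, wild-type (WT) and conditional knockout (cKO), and the comparison addressed how loss of Tox4, an HMG-box protein that regulates PP1 phosphatases, alters transcription in these cells. Mice of both groups had floxed Tox4 alleles (labelled Tox4;F/F). The cKO mice (labelled Tox4;F/F;Lck+) also carried a Cre transgene, which per the study's methods is under the proximal Lck promoter and deletes the floxed exons in developing T cells. The methods describe the mice as young adult, sex-matched littermates on a C57BL/6 background. Depth ranged from 38429786 to 48690591 fragments per library. Nothing in the labels says that each library came from a separate mouse, so the p-values measure the spread between libraries, part of which may be technical.

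KLF proteins bind GC-rich sequences and CACCC boxes in promoters through zinc fingers at their C-terminal end, which differ little within the family. The N-terminal regions differ and recruit either coactivators or corepressors, so that members with nearly the same binding sites can act in opposite ways on transcription. In T cells the family is best known for holding cells in quiescence and for controlling the genes of thymic exit and homing. Within the set, Klf4, Klf6 and Klf7 are often activators, Klf3 represses through the corepressor CtBP, and Klf9, Klf10, Klf11, Klf13 and Klf16 form the group that represses through Sin3A.

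The KLF proteins recognise GC-rich elements that are also found in promoters of the family itself. The 250 bases upstream of the annotated start were therefore read from RefSeq (GRCm38.p6) for 7 members. No promoter window was at hand for Klf10 and Klf16, although RefSeq annotates both genes. Of 5 motifs searched on both strands, the GC box (GGGCGG) was found in 6 of the 7 windows and in 32.7% of 32851 windows of the same length in that annotation. The CACCC box (CACCC) was found in 4 of 7 and in 52.0% of all windows. The CCAAT box (CCAAT) was found in 4 of 7 and in 33.9% of all, and the core of a cyclic AMP response element (TGACG) in 3 of 7 and in 17.8% of all. The TATA box (TATAAA) was found in 0 of 7 and in 12.4% of all. The median GC content was 71.6% in the member windows and 52.4% in all windows, and the GC box is itself made of G and C, so these shares are a description of base composition as much as of motifs. The background windows were not limited to genes transcribed in these cells, as the members are. No motif here is a measured binding site. The windows of Klf3, Klf13 and Klf9 are printed here because these are the members whose WT and cKO libraries did not overlap in the results that follow, and because they span the range from many GC boxes to none. Each is given 5′ to 3′ on the strand of the gene. Capitals mark GC boxes and CCAAT boxes on either strand, and neighbouring matches can overlap or share a run. The Klf3 window lies at chr5:64803271-64803520 on the plus strand, the Klf13 window at chr7:63938916-63939165 on the minus strand and the Klf9 window at chr19:23140976-23141225 on the plus strand.
Klf3: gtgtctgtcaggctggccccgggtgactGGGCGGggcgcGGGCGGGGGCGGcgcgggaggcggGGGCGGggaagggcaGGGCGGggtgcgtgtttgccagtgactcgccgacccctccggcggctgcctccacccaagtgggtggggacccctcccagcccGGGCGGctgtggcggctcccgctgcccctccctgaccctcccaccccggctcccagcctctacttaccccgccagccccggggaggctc
Klf13: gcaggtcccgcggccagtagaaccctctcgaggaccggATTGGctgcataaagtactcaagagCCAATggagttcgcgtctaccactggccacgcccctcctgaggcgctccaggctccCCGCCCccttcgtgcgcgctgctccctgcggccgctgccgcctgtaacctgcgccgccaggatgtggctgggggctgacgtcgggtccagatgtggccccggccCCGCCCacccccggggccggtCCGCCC
Klf9: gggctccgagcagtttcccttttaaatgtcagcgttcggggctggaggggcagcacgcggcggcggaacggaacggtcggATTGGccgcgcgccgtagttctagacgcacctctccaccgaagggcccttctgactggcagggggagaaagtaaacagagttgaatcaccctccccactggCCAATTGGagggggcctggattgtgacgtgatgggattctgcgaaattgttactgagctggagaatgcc
The Klf3 window held 6 GC boxes, 5 CACCC boxes and no CCAAT box, with a GC content of 78.4%. The Klf13 window held 3 GC boxes, 1 CACCC box and 2 CCAAT boxes, and the Klf9 window held 0 GC boxes, 1 CACCC box and 3 CCAAT boxes, of which a pair lies in the palindrome CCAATTGG.

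None of the 9 KLF genes passed the test between genotypes, and the log2 fold change of cKO over WT lay between -0.35 and 0.17 for all of them. A gene was called where the DESeq2 adjusted p-value was under 0.05, the fold change at least 1.2 and the mean level at least 1 CPM, a unit in which the fragments of every library are scaled to the same total. Levels are thus relative to the rest of each library. A shift shared by all genes would not be seen in them or in the fold changes. The mean level was at least 1 CPM for 9 of 9 members and 0 of 9 were called, beside 3.71% of the 11625 genes at or above that level. On this log2 scale 5 members had a positive and 4 a negative value, with a median of 0.00 for the members and of 0.00 over the 11625 genes. The largest positive value was that of Klf3 at 0.17 and the largest negative value that of Klf9 at -0.35. The libraries of the genotypes did not overlap for 3 members. For 1 member (Klf3) the cKO libraries were both above the WT libraries, against 24.9% of the genes tested, and for 2 members (Klf9 and Klf13) they were both below, against 24.0%. One member's unadjusted p-value, that of Klf3, was under 0.05, which held for 13.5% of the genes tested, so that the members stood near the background by each of these counts. By edgeR 0 members were called (0.654% of genes) and 1, again Klf3, had an unadjusted p-value under 0.05 (15.6% of genes). By limma voom 0 members were called, against 0.628% of genes.

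**Figure D1:**
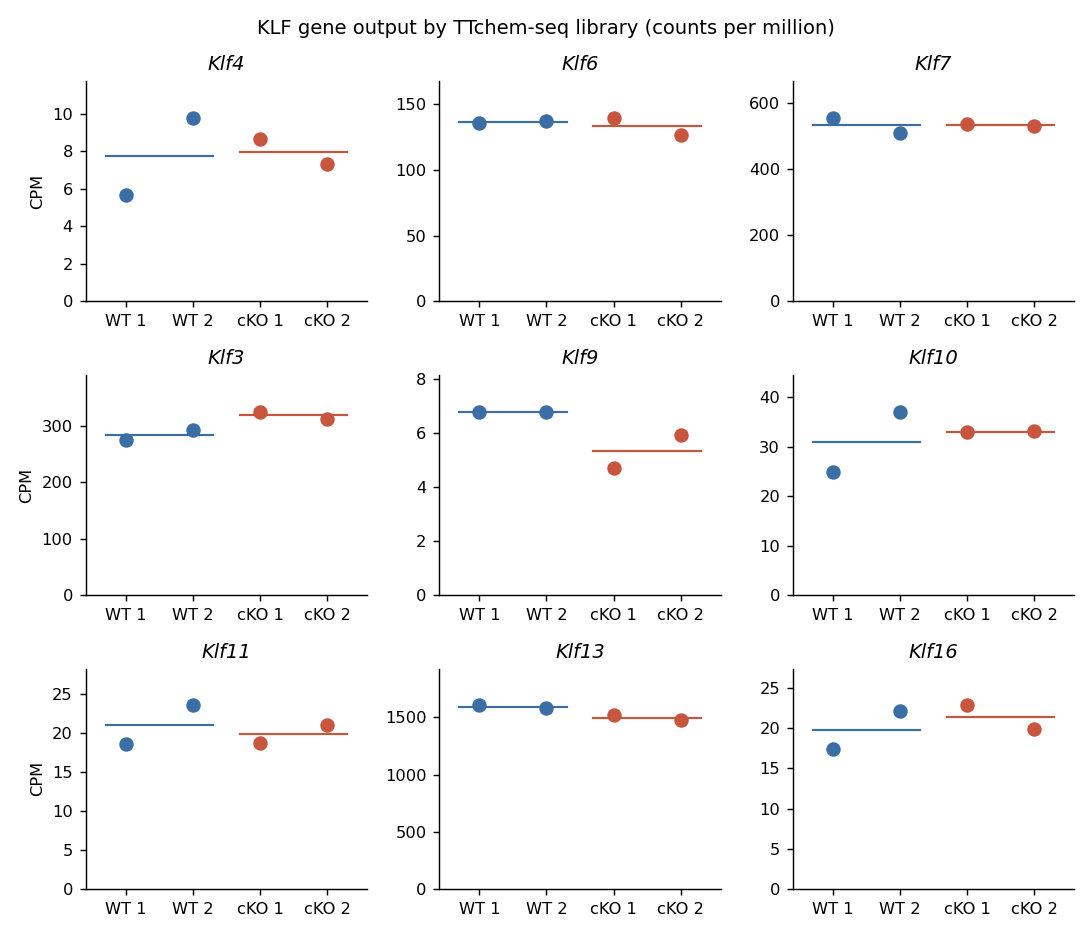
Level of each KLF gene in CPM (y axis, its own scale per panel) in the 2 WT and 2 cKO libraries, with points for libraries and a line for the mean of each genotype. The cKO libraries lie above the WT libraries for Klf3 and below them for Klf9 and Klf13, and the libraries of the genotypes overlap for the other 6 genes.

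Among the members that are often activators, Klf4 is best known as one of the factors that reprogram somatic cells to pluripotency. Klf4 (chr4:55527137-55532475, minus strand, GRCm38) had 5.68 and 9.80 CPM in WT replicates 1 and 2 and 8.64 and 7.34 CPM in cKO replicates 1 and 2. The WT libraries were thus the lowest and the highest of the 4, with the cKO libraries between them. WT averaged 7.74 ± 2.91 CPM (SD, n = 2) and cKO 7.99 ± 0.916 CPM, a log2 fold change of 0.04 with a standard error (SE) of 0.280 (adjusted p = 0.979 by DESeq2). Its 95% interval ran from 0.703-fold to 1.505-fold. These values rest on 242 to 477 fragments per library. Leaving out WT replicate 1 gave a log2 fold change of -0.31 and leaving out WT replicate 2 gave 0.50, so the sign for Klf4 rests on which WT library is kept.

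Klf6, a broadly expressed member that responds early to stimulation in many cell types, lies at chr13:5861489-5870393 on the plus strand and was transcribed at a higher level. It had 136 and 137 CPM in WT replicates 1 and 2 and 139.6 and 127 CPM in cKO replicates 1 and 2. The cKO libraries were the highest and the lowest, and the WT libraries were nearly equal. The log2 fold change was -0.04 (SE 0.0872, DESeq2 adjusted p = 0.917), with a 95% interval from 0.866-fold to 1.10-fold. That interval did not reach 1.2-fold in either direction.

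Klf7, a close relative of Klf6 first known as a ubiquitous factor, lies at chr1:64035671-64121389 on the minus strand and is the longest of the 9 loci, at 85719 bp. Klf7 had 556 and 511 CPM in WT replicates 1 and 2 and 538 and 531 CPM in cKO replicates 1 and 2. Both cKO libraries lay between the WT libraries. The averages were 533 ± 31.9 CPM for WT and 535 ± 4.52 CPM for cKO, which gave a log2 fold change of 0.00 (SE 0.0733; adjusted p = 0.999, DESeq2). The 95% interval, from 0.906-fold to 1.11-fold, also excluded 1.2-fold in both directions. The microRNA gene Mir6899 lies inside Klf7 on the same strand and was counted at 9 to 25 fragments per library, against at least 20664 for Klf7.

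Klf3, the member that recruits CtBP and in lymphocytes is best known from B cells, had the smallest p-value of the set. It lies at chr5:64803523-64830129 on the plus strand. Klf3 had 275 and 292 CPM in WT replicates 1 and 2 and 326 and 313 CPM in cKO replicates 1 and 2. Both cKO libraries were above both WT libraries, with means of 284 ± 12.03 CPM for WT and 320 ± 9.09 CPM for cKO. On the log2 scale this was a difference of 0.17 (SE 0.0765), whose 95% interval ran from 1.01-fold to 1.25-fold before any adjustment over genes. The unadjusted p-value was 0.0284 and the DESeq2 adjusted p-value 0.264, and the fold change itself was under 1.2. Klf3 did not pass the test, and leaving out 1 library at a time moved its log2 fold change between 0.12, without WT replicate 1, and 0.22, without WT replicate 2. RefSeq places the end of Klf3 2772 bases beyond the counted interval, and fragments from there are not part of these values.

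As the member with the smallest p-value, Klf3 was compared with the 8152 genes with a mean of at least 10 CPM by the Euclidean distance of log2(CPM + 0.5), each gene centred on its mean over the 4 libraries. The closest were Trim27 at a distance of 0.0129, Ino80c at 0.0174 and Ssx2ip at 0.0183, with log2 fold changes of 0.17, 0.18 and 0.16. A pattern within 0.1 of that of Klf3 was shared by 496 genes, so 4 libraries single out few genes.

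In the group that binds Sin3A, Klf13 had by far the highest level. Klf13 is known in T cells as a factor that promotes late transcription of the chemokine gene Ccl5 after activation. It lies at chr7:63886351-63938915 on the minus strand. Klf13 had 1604.5 and 1583 CPM in WT replicates 1 and 2 and 1519 and 1475 CPM in cKO replicates 1 and 2. Both cKO libraries were below both WT libraries, but by little. The means were 1594 ± 14.9 CPM and 1497 ± 31.6 CPM, which is a log2 difference of -0.09 (SE 0.0655; adjusted p = 0.580 by DESeq2) and a 95% interval from 0.858-fold to 1.02-fold. With at least 58385 fragments in each library Klf13 was the most deeply counted member, and leaving out 1 library at a time kept its log2 fold change between -0.11 and -0.08. The gene E030018B13Rik lies within Klf13 on the other strand and was at 0 fragments in all 4 libraries. A count of 0 allows a level of up to 0.0616 CPM in the deepest library and 0.0781 CPM in the shallowest, by the limit of 3 counts and for counting error only.

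Klf9, which is induced directly by glucocorticoid and thyroid hormone receptors in many tissues, was at the other end. It lies at chr19:23141226-23168128 on the plus strand. Klf9 had 6.76 and 6.79 CPM in WT replicates 1 and 2 and 4.71 and 5.92 CPM in cKO replicates 1 and 2. The WT libraries were nearly equal, and both cKO libraries were below them. The means were 6.77 ± 0.0222 CPM and 5.32 ± 0.858 CPM, and the log2 fold change was -0.35 (SE 0.265, DESeq2 adjusted p = 0.625). Its 95% interval was wide, from 0.548-fold to 1.13-fold, on 181 to 330.5 fragments per library. Without cKO replicate 1 the log2 fold change was -0.18 and without cKO replicate 2 it was -0.53. The microRNA gene Mir1192 lies inside Klf9 on the same strand and was counted at 0 to 3.5 fragments.

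Klf10 and Klf11 are TGF-β-inducible early genes, and Klf10 acts in regulatory T cells. Klf10 (chr15:38291464-38300711, minus strand) had 24.8 and 37.1 CPM in WT replicates 1 and 2 and 32.9 and 33.2 CPM in cKO replicates 1 and 2. The cKO libraries were nearly equal and lay between the WT libraries. Its log2 fold change was 0.09 (SE 0.171, DESeq2 adjusted p = 0.895, 95% interval from 0.843-fold to 1.34-fold), and leaving out WT replicate 1 gave -0.18, leaving out WT replicate 2 0.41. Klf11 (chr12:24651371-24662782, plus strand) had 18.5 and 23.5 CPM in WT replicates 1 and 2 and 18.6 and 21.0 CPM in cKO replicates 1 and 2. The cKO libraries again lay within the range of the WT libraries. Its log2 fold change was -0.09 (SE 0.171, DESeq2 adjusted p = 0.892, 95% interval from 0.745-fold to 1.18-fold), and it was 0.10 without WT replicate 2.

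Klf16, a small Sin3A-binding member close to Klf13 in sequence, lies at chr10:80567121-80577296 on the minus strand. Klf16 had 17.4 and 22.1 CPM in WT replicates 1 and 2 and 22.8 and 19.9 CPM in cKO replicates 1 and 2. The libraries of the genotypes overlapped, with WT replicate 1 the lowest. The log2 fold change was 0.11 (SE 0.171, DESeq2 adjusted p = 0.861, 95% interval from 0.856-fold to 1.36-fold), and it was -0.06 without WT replicate 1.

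**Figure D2:**
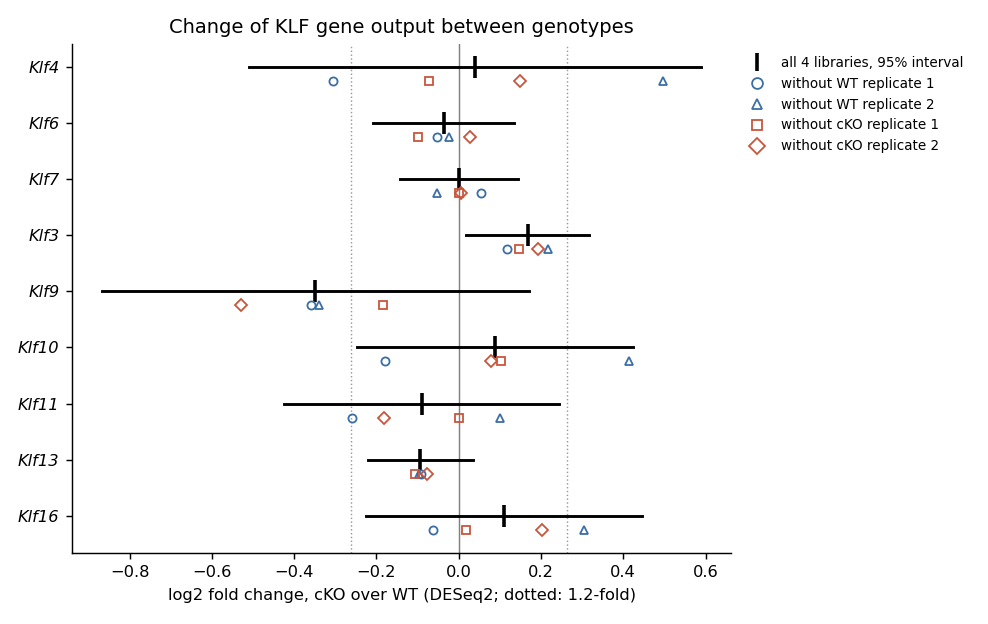
Log2 fold change of cKO over WT for each KLF gene (x axis) with its 95% interval from DESeq2. The intervals of 8 genes span 0, that of Klf3 runs from 0.02 to 0.32 before adjustment over genes, and those of Klf4 and Klf9 are the widest.

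WT replicate 1 differed from WT replicate 2 for several of these genes. It was the lower of the WT libraries for 7 of 9 members, against 50.7% of the genes tested, and the lowest of all 4 libraries for 5 members, against 27.8% of the genes tested. The difference of WT replicate 1 from WT replicate 2 on the log2(CPM + 0.5) scale was -0.74 for Klf4, -0.57 for Klf10, -0.34 for Klf11 and -0.34 for Klf16. For the other 5 members it lay between -0.09 for Klf3 and 0.12 for Klf7, and it was -0.01 for Klf9, the member with the lowest level. Xist, the non-coding RNA of the inactive X chromosome, was counted at 172 CPM in WT replicate 1, while no other library exceeded 2.36 CPM. These values go against the methods' description of the mice as sex-matched, if it applies to these libraries, and the part of sex in the member values was not tested. Of the members 0 were called without WT replicate 1, where 184 of all genes were, and 0 without WT replicate 2, where 446 of all genes were.

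Levels were compared between the genes per kb of the counted interval, the deposited length of the gene with introns included, which can stop short of the RefSeq gene. On this scale Klf13 was highest at 29.4 CPM per kb, above 98.5% of the genes with at least 1 CPM. It was followed by Klf6 at 15.1, Klf3 at 11.3, Klf7 at 6.23, Klf10 at 3.46, Klf16 at 2.02, Klf11 at 1.79, Klf4 at 1.47 and Klf9 at 0.225 CPM per kb. The ratio of the highest to the lowest was 131. The spread among members was thus far wider than any difference between genotypes. Neighbours in this order were apart in every library for 6 of the 8 pairs. The widest gap was the 6.56-fold step from Klf4 to Klf9, and Klf13 lay 1.94-fold above Klf6. Klf16 (1.71 to 2.25 CPM per kb over the libraries), Klf11 (1.62 to 2.06) and Klf4 (1.06 to 1.83) overlapped in turn and their order is not settled. Klf9, the lowest, had a level above 14.9% of the genes with at least 1 CPM.

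**Figure D3:**
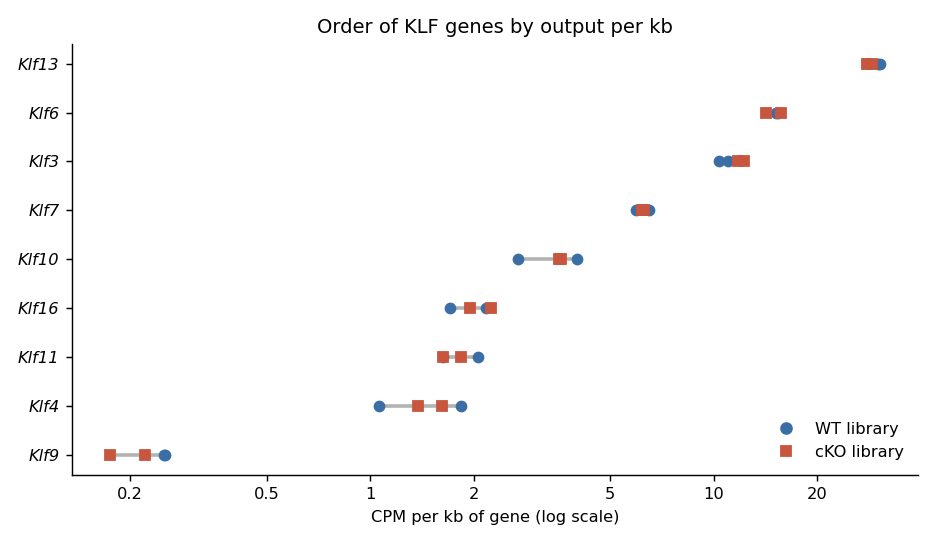
Level of each KLF gene in CPM per kb of the counted interval (x axis, log scale), with a point per library and genes in order of their mean. Klf13 is highest at 28.1 to 30.5 CPM per kb and Klf9 lowest at 0.175 to 0.252, and the libraries of Klf16, Klf11 and Klf4 overlap their neighbours.

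The order was the same with the WT libraries alone and with the cKO libraries alone. By CPM without regard to length, 7 of 9 members kept their rank, as Klf7 and Klf6 exchanged the second and the fourth place. Gene structure differs greatly within the set: exons of the RefSeq model took 1.56% of the counted interval of Klf7, 8.70% of Klf3 and 12.2% of Klf13, but 57.0% of Klf4 and 47.4% of Klf6. Most of the signal of long members such as Klf7 can therefore come from introns. RefSeq extends Klf7 beyond the counted interval by 6223 bases at its 3′ end and by 956 bases at its 5′ end.

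Klf2, the member known for controlling thymic exit, had 73.5 and 73.1 CPM in WT replicates 1 and 2 and 69.0 and 51.8 CPM in cKO replicates 1 and 2 (log2 fold change -0.28, SE 0.128, DESeq2 adjusted p = 0.256) and was not called. Of the other 7 genes of the family, Klf8 at 6.04 to 6.80 CPM and Klf12 at 3.85 to 5.59 CPM had a mean of at least 1 CPM, and neither was called. Klf5, at 0.1301 to 1.31 CPM, and Klf1 had a mean under 1 CPM, and Klf14, Klf15 and Klf17 had 0 fragments in every library. The related SP factors bind the same GC boxes. Of 9 SP genes 5 were tested and none was called, with 142, 148, 140 and 148 CPM for Sp1 and 205, 197, 221 and 214 CPM for Sp3 in WT replicates 1 and 2 and cKO replicates 1 and 2.

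Genes through which KLF proteins act or by which they are removed gave no call either. Of 10 corepressor genes 9 were tested and 0 called, with a median log2 fold change of 0.03. Ctbp1, which encodes a partner of Klf3, had 267 and 276 CPM in the WT and 245 and 247 CPM in the cKO libraries (log2 fold change -0.15, DESeq2 adjusted p = 0.358). Sin3b had a log2 fold change of -0.05. All 4 coactivator genes were tested and 0 called, and Crebbp had a log2 fold change of -0.03. All 7 ubiquitin ligase genes were tested and 0 called. Wwp1, named after its values were seen as the 1 ligase with an unadjusted p-value under 0.05, had 69.8, 59.9, 77.7 and 77.8 CPM in WT replicates 1 and 2 and cKO replicates 1 and 2 (log2 fold change 0.26, DESeq2 adjusted p = 0.177).

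Among 16 genes that regulate KLF genes in other settings, 1 rose and 0 fell, with a median log2 fold change of 0.02. Over all genes tested, 3.71% were called in either direction. The gene that rose was Nr3c1, which encodes the glucocorticoid receptor. Nr3c1 had 415 and 420 CPM in WT replicates 1 and 2 and 582 and 589 CPM in cKO replicates 1 and 2. Both cKO libraries were well above the WT libraries, and the log2 fold change was 0.49 (SE 0.0694, DESeq2 adjusted p = 1.45e-09). Nr3c1 was also called by edgeR (adjusted p = 0.0279), with the replicate block and without each of the 4 libraries in turn. Klf9, a classical target of this receptor, stood at a log2 fold change of -0.35 and was not called. Mef2d, which lies upstream of Klf2 and Klf4 in the MAP kinase pathway through ERK5, had 1501 and 1462 CPM in the WT and 1292 and 1269 CPM in the cKO libraries. Its log2 fold change of -0.21 had an adjusted p-value of 0.0326 by DESeq2 but lay under 1.2-fold, so Mef2d was not called. Genes of TGF-β signalling, which induces Klf10 and Klf11, did not pass the test, with a log2 fold change of 0.07 for Smad3 and -0.01 for Smad4.

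Of 9 genes known as KLF targets in lymphocytes or as cell cycle inhibitors, 7 were tested, 1 rose and 1 fell. The share called over all genes tested was 3.71%. Il7r, the interleukin-7 receptor, had 62.0 and 61.7 CPM in the WT and 83.1 and 75.8 CPM in the cKO libraries (log2 fold change 0.36, DESeq2 adjusted p = 0.0125). Ccr7, a chemokine receptor of mature thymocytes, had 255 and 243 CPM in the WT and 213 and 181 CPM in the cKO libraries (log2 fold change -0.34, DESeq2 adjusted p = 0.00714). The called targets thus moved in opposite directions. Neither was called by edgeR (adjusted p-values of 0.0924 for Il7r and 0.137 for Ccr7), with the replicate block (0.183 and 0.0581 by DESeq2) or by DESeq2 without WT replicate 1. Il7r also lost its call without each of the other 3 libraries, and Ccr7 without cKO replicate 2. Cdkn1b, which encodes the inhibitor p27, had a log2 fold change of -0.07 (adjusted p = 0.803 by DESeq2), and S1pr1, the receptor for thymic exit, one of -0.03. Cdkn1a, which encodes the inhibitor p21 and is given after its values were seen, had 1.64, 3.37, 3.25 and 5.03 CPM in WT replicates 1 and 2 and cKO replicates 1 and 2. Its libraries overlapped between genotypes, and its log2 fold change was 0.72 (SE 0.417; adjusted p = 0.460 by DESeq2). Ccl5, the target of Klf13, had a mean under 1 CPM. In such bulk samples, a smaller share of a cell type and less RNA per cell cannot be told apart.

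Several KLF genes behave as immediate early genes, which respond within minutes to handling or stimulation, and other genes of this class were therefore set beside them. Of 19 such genes 17 were tested, 2 rose and 5 fell, with a median log2 fold change of -0.27, against 0.00 over all genes tested. Of all genes tested, 3.71% were called in either direction. Fosl2 (log2 fold change 0.49) and Nr4a3 (0.37) rose, and Jun (-0.57), Egr1 (-0.70), Ier5 (-0.53), Btg2 (-0.31) and Zfp36 (-0.33) fell, with DESeq2 adjusted p-values from 0.000793 to 0.0317. WT replicate 1 was below WT replicate 2 for 15 of the 17 genes, as it was for 7 of the 9 KLF members, but also for 11 of 12 DP thymocyte markers and 4 of 5 tested SP genes. It was so for 1 of 7 mature single positive markers, 1 of 7 ubiquitin ligases, 1 of 4 coactivators, 3 of 7 KLF targets, 7 of 16 upstream regulators and 5 of 9 corepressors. The summed level of the immediate early genes was 1063 and 1259 CPM in WT replicates 1 and 2 and 1046 to 1052 CPM in the cKO libraries. The part of this difference between libraries in the KLF values was not tested. Without WT replicate 1, 0 genes of the list rose and 3 fell, without WT replicate 2, 2 rose and 0 fell and the median was 0.02, and without cKO replicate 1, 1 rose and 1 fell. With the replicate block 1 rose and 0 fell, so that all 5 genes named as lower lost their call. Without cKO replicate 2 or by edgeR 0 were called in either direction.

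**Figure D4:**
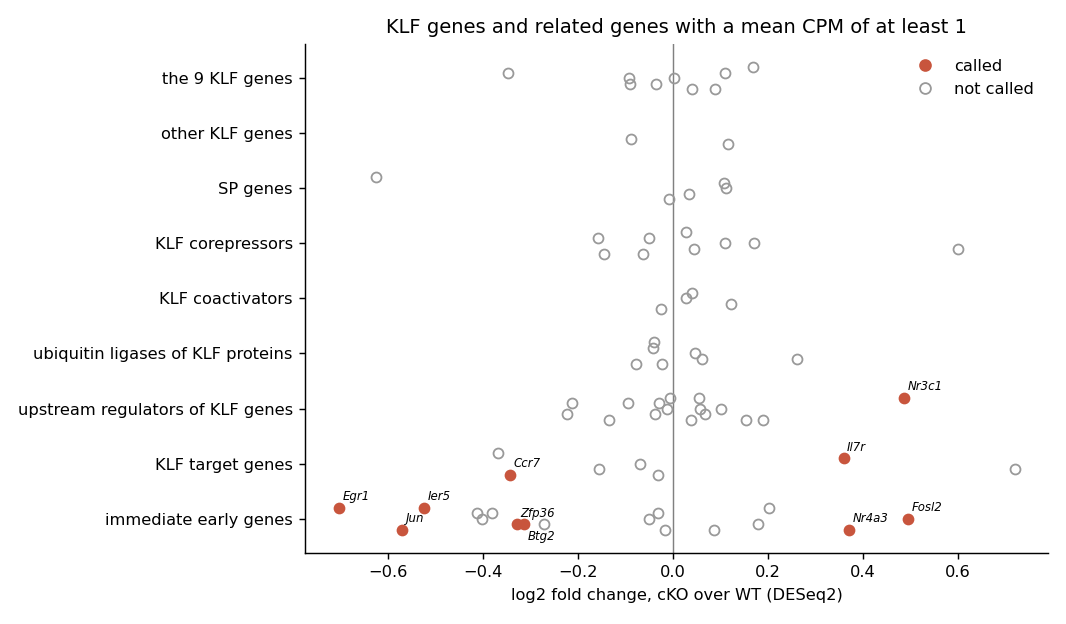
Log2 fold change of cKO over WT (x axis) for each tested gene of the lists related to the KLF genes, with filled points for called genes. Called genes are found among the upstream regulators (1 of 16), the targets (2 of 7) and the immediate early genes (7 of 17), and in no other list shown of partners or relatives. Of all genes tested, 3.71% were called.

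The libraries were checked against their labels and for other cells. Tox4 itself had 74.0 and 70.3 CPM in the WT and 59.3 and 57.2 CPM in the cKO libraries, a log2 difference of -0.31 (DESeq2 adjusted p = 0.0453). This count covers the whole locus and not the floxed exons alone. Tox4 was no longer called by edgeR (adjusted p = 0.122), with the replicate block or with any 1 of the libraries left out. The 12 DP markers all had at least 1 CPM, and 3 of them fell, Cd8a (log2 fold change -0.54, DESeq2 adjusted p = 1.21e-05), Tcf7 (-0.33, 0.0174) and Rag1 (-0.31, 0.0499). The share called over all genes tested was 3.71%. None of these 3 markers was called by edgeR (adjusted p-values of 0.0887, 0.238 and 0.254). With the replicate block only Cd8a of the 3 was called by DESeq2, and with 1 library left out Cd8a was called each time, Rag1 only without WT replicate 1 and Tcf7 only without cKO replicate 1. Of 7 mature single positive markers 1 rose and 1 fell, and these were again Il7r and Ccr7, which edgeR did not call. The study's methods describe purification on CD4 beads for other assays, which would retain CD4 single positive cells. Erythroid markers summed to at most 0.805 CPM, B cell markers to between 12.6 and 14.6 CPM, and myeloid markers to between 26.4 and 28.6 CPM in WT and between 24.7 and 26.4 CPM in cKO. The largest part of the myeloid sum was Cst3, at 13.4 to 16.0 CPM. Myeloid markers at lower levels went both ways. Lyz2 had 1.34 and 1.21 CPM in the WT and 0.312 and 0.679 CPM in the cKO libraries, and Itgam 1.06 and 1.07 against 1.51 and 1.53 CPM. Of thymic epithelial markers only Ccl25 was tested, at 30.9 to 40.4 CPM. Stromal and endothelial markers summed to between 361 and 405 CPM in WT and between 391 and 418 CPM in cKO, nearly all of it Pecam1, which T cells can also transcribe. The part of these cells in the KLF levels was not tested.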

How the data were processed

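Nascent RNA of DP thymocytes was measured by TTchem-seq in 2 WT and 2 cKO libraries, grouped by their titles. According to the study's methods and the submitters' processing notes, the authors trimmed reads with fastp 0.13.1 and aligned them with STAR 2.7.9a to GRCm38 (mm10). featureCounts 1.6.1 is also named in those notes. The deposited values were expected counts of fragments per gene over the interval from transcript start to end, introns included, and 8.61% of values were fractional. The notes do not say how fractions were assigned or whether strand was used in counting, and the yeast spike-in was not used for scaling. Duplicates were marked, and without molecular identifiers fragments are not independent molecules. Library totals were 38429786 to 48690591 fragments.

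Expected counts were rounded and tested with DESeq2 1.42.0 (R 4.3.3), the package the study names, by its Wald test over all genes with Benjamini-Hochberg adjustment and independent filtering at 0.1. CPM used the table totals, and the per-kb scale the deposited length in bp. Replicates of a genotype correlated at 0.992 (WT) and 0.993 (cKO) on log2 CPM and differed by more than counting noise, with a chi-square per degree of freedom of 40.7 and 30.7. Alternatives were edgeR 4.0.16 quasi-likelihood, limma 3.58.1 voom, other size factors, other filters and fold criteria, a replicate block and leaving out each library. With 1 library left in a genotype, that library was assumed to vary like the other genotype. The tests were also run on counts simulated with known fold changes, and their recovery of these is not reported here. Python 3.11.15 was used for promoters and figures. The KLF genes and the related lists were chosen with earlier results of these data known. Named genes were the 9 members, Tox4, Klf2, the called genes of each list with up to 3 others of highest CPM per kb, and the 3 genes most like Klf3. Wwp1, Ccl5, Xist and the other genes given outside this rule were chosen after their values were seen. Same-numbered libraries of the genotypes shared no deviation (correlation -0.03), so the numbers were not taken as pairs. Protein sequences were not analysed here, and 1 gene of the related lists is not reported here and was left out of their counts.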

Additional observations from a re-analysis of the deposited data

How the results depend on the processing

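The count of KLF members called was 0 under every setting tried, and 9 of 9 members kept a mean of at least 1 CPM. Over all genes the call count was 431 and was far lower by edgeR (76), limma voom (73), with the replicate block (193) or where 1.5-fold was required (150), and it lay between 89 and 446 with 1 library left out. It was 838 by edgeR without a filter on low counts and 96 by edgeR with the replicate block, both alternatives chosen after seeing the data. With the replicate block, although the shared numbers did not pair the libraries, 0 members had an unadjusted p-value under 0.05. The sign of the log2 fold change was kept in 68 of 72 member fits with all libraries in which the fold change was estimated anew, and the other 4 were of Klf7, at -0.00244 (edgeR), -0.000962 (limma voom), -0.00225 (at least 1 CPM in every library) and -0.00119 (edgeR with the replicate block). With 1 library left out it was kept in 28 of 36 fits. The sign turned in at least 1 of these fits for Klf4 (-0.31 without WT replicate 1, -0.0728 without cKO replicate 1, 0.50 without WT replicate 2), Klf10 (-0.18 without WT replicate 1, 0.41 without WT replicate 2), Klf16 (-0.0621 without WT replicate 1, 0.30 without WT replicate 2), Klf7 (-0.0532 without WT replicate 2, 0.0539 without WT replicate 1), Klf11 (0.10 without WT replicate 2, 0.000848 without cKO replicate 1, -0.26 without WT replicate 1) and Klf6 (0.0268 without cKO replicate 2, -0.0990 without cKO replicate 1). The cause was not tested. The adjusted p-value of Klf3 ranged from 0.175 to 0.9995 over the alternatives. With 2 libraries per genotype, the 95% intervals of Klf3, Klf4, Klf9, Klf10, Klf11 and Klf16 included changes of over 1.2-fold.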
